A study of Mus musculus with 12 samples.

Results

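Transcripts of 9 genes that mark inhibitory interneurons were followed in the cortex of CD mice, a model of Williams-Beuren syndrome, and of wild-type controls, with and without a combined drug treatment. The genes were Gad1, Gad2, Lhx6, Pvalb, Sst, Npy, Vip, Cck and Reln. They were taken by symbol from a table of 17202 genes, and each of the 9 matched 1 row. The mean of every one was far above the filter on low values, a mean of 10 normalized counts, so all 9 were tested.

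RNA was taken from freshly dissected cortex of C57Bl6 mice aged 16 weeks, with 3 mice in each of 4 groups. VEH-WT and VEH-CD mice were the untreated wild-type and CD animals of the labels, which the paper describes as given vehicle. VERCUR-WT and VERCUR-CD mice drank curcumin at 60 mg/kg/day with verapamil, a blocker of L-type calcium channels, at 10 mg/kg/day, from 8 weeks of age and, as the labels put it, over 1 month. The paper gives a lower verapamil dose and an earlier end, and describes the tissue as frontal cortex that was frozen before RNA extraction. CD mice lack 1 copy of the interval on chromosome 5 from Gtf2i to Fkbp6 throughout the body. The paper's colony was of male mice, with CD mice crossed to a Thy1-YFP line that marks pyramidal neurons, and the labels do not say whether these libraries carried the transgene. Nothing in the labels says how the mice of a group were related, so the p-values measure the spread between these animals.

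GABAergic interneurons are the minority of cortical neurons that inhibit their neighbours. Gad1 and Gad2 encode the enzymes GAD67 and GAD65, which make GABA from glutamate and mark nearly all of these cells. Interneurons born in the medial ganglionic eminence depend on the transcription factor Lhx6 and mature into fast-spiking cells that hold the calcium buffer parvalbumin (Pvalb) or into cells that release somatostatin (Sst), many of them with neuropeptide Y (Npy). Cells from the caudal eminence make vasoactive intestinal peptide (Vip), cholecystokinin (Cck) or, in the outermost layer, the secreted glycoprotein reelin (Reln). Cck is also made by many pyramidal neurons and Reln by some Sst cells, so neither reports on 1 cell type in whole cortex.

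Several neuropeptide genes are textbook targets of the cyclic AMP response element, to which the activity-dependent factor CREB binds, and the members were therefore searched for it. The window ran from 250 bases before to 50 bases after each start in RefSeq (GRCm38.p6), and all 9 members had at least 1. The palindrome TGACGTCA was found in 1.79% of the 32851 windows of all genes, and its core TGACG, which every palindrome also holds, in 20.8%, on either strand. Sst held the palindrome, 48 bases before its start. Vip held the core 79 bases, Cck 47 bases and Gad2 33 bases before the start, and the windows of Gad1, Lhx6, Pvalb, Npy and Reln held neither. In GENCODE M21, which starts both genes further upstream, the sites of Sst and Gad2 lie inside annotated exons. A match is a description of these letters, not of binding. The sites are printed with 30 bases around each, 5′ to 3′ on the strand of the gene and with the match in capitals, because they tell apart peptide genes that are otherwise grouped together. They lie at chr16:23890874-23890903 for Sst (minus strand), chr10:5639126-5639155 for Vip (plus strand), chr9:121495725-121495754 for Cck (minus strand) and chr2:22622281-22622310 for Gad2 (plus strand). In Cck and Gad2 the core lies on the opposite strand and reads CGTCA.
Sst: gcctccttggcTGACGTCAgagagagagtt
Vip: gggatcactactgTGACGtctttcggggag
Cck: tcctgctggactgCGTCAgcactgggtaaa
Gad2: tccatttcccttcCGTCActctctcatctc

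Npy is shown with them over the 100 bases just before its start, at chr6:49822610-49822709 on the plus strand as a peptide gene that held neither motif.
Npy: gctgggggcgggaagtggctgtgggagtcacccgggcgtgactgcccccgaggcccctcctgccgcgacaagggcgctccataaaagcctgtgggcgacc

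The libraries held 40290000 to 56480000 counted reads per mouse. The 19 measured genes of the deleted interval had a median level of 0.468 to 0.53 of the VEH-WT mean in the CD mice and of 0.959 to 1.036 in the wild-type mice, so each library matched its labelled genotype. Reln lies on the same chromosome as the deletion, at chr5:21884454-22344702, but outside it. The 8 markers of pyramidal neurons were expressed in every library. Striatal transcripts were uneven: the summed level of 8 markers of striatal neurons, with the VEH-WT mean set to 1, stood at 1.5 in VEH-WT mouse 3, 1.57 in VEH-CD mouse 1, 1.67 in VERCUR-WT mouse 3 and 1.18 in VERCUR-CD mouse 1, against 0.716 to 0.769 in the other 4 untreated mice and 0.402 to 0.432 in the other 4 treated mice. Striatal neurons also use Gad1 and Gad2, and results are therefore also given without these 4 mice, a choice made after seeing the data. Leaving them out does not even out the striatal level between treated and untreated mice, which then do not overlap.

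Per kilobase of exonic sequence (GENCODE M21), the transcripts of Cck, Sst and Npy were the most abundant of the 9. Cck had the highest level, 14344 ± 924 normalized counts per kilobase (SD over 12 mice), followed by Sst at 13546 ± 778. Npy stood at 7029 ± 569, Pvalb at 2304 ± 338 and Gad1 at 1904 ± 146. Lower levels were seen for Gad2 (1151 ± 115), Vip (605 ± 61.4), Lhx6 (216 ± 18.2) and Reln (89.9 ± 10.3). This order held in 12 of 12 mice between most neighbours, with 2 exceptions. Cck was above Sst in 9 of 12 mice and Pvalb above Gad1 in 9 of 12, so these neighbours were not separated beyond their spread.

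Gad1 was the member with the clearest split between untreated wild-type mice and all others. It stood at 16183, 15179 and 16987 normalized counts in the VEH-WT mice and at 14285, 13704 and 14168 in the VEH-CD mice. In the treated groups it stood at 13882, 12924 and 14438 in VERCUR-WT mice and at 13880.4, 14843 and 14108 in VERCUR-CD mice. The lowest VEH-WT value was thus above each of the 9 values of the other groups, and those 3 groups overlapped. Pair by pair, every VEH-CD mouse lay below every VEH-WT mouse in 11.4% of all genes. The same held for VERCUR-CD mice in 7.33% and for VERCUR-WT mice in 5.25%. The share of all genes with VEH-WT mice above all other groups was not counted.

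Gad2 showed the same order as Gad1 in the untreated mice. Its VEH-WT values were 6997, 7045 and 7927 normalized counts and its VEH-CD values 6471, 6297 and 5868, without overlap. Treated mice were spread more widely, at 7362, 5987 and 7344 in VERCUR-WT and at 6086, 7465 and 6313 in VERCUR-CD. Both treated groups overlapped both untreated ones.

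Lhx6 encodes the factor that interneurons of the medial eminence need for their migration and identity. Normalized counts of Lhx6 were 1129.8, 1081 and 1207 in VEH-WT mice and 967, 944 and 901 in VEH-CD mice. The VERCUR-WT mice had 1123, 1031 and 1004, and the VERCUR-CD mice had 977, 1036 and 1035. VEH-CD mice were the lowest of all groups, with no overlap with any of them, and VERCUR-CD mice lay between VEH-CD and VEH-WT mice. The share of all genes with VEH-CD mice below all other groups was not counted.

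Pvalb varied more between mice than any other member in every group but VEH-WT. Its normalized counts were 2773, 2502 and 2818 in VEH-WT mice and 2472, 1793 and 2593 in VEH-CD mice. In VERCUR-WT mice they were 1815, 2594 and 2555, and in VERCUR-CD mice 2549, 1952 and 2359. A single mouse of each group other than VEH-WT lay well below its group mates, and the coefficient of variation was 18.9% in VEH-CD, 18.9% in VERCUR-WT and 13.3% in VERCUR-CD against 6.3% in VEH-WT.

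Sst and Npy, which share many cells, had closely similar groups. Normalized counts of Sst were 10603, 9718 and 10189 in VEH-WT, 9959.7, 9101 and 9859.6 in VEH-CD, 9737, 10181 and 10052 in VERCUR-WT and 9884, 8452 and 9461 in VERCUR-CD mice. Npy stood at 4259, 3838 and 4174 in VEH-WT, 4037, 3431 and 4074 in VEH-CD, 3489.7, 4428 and 4163 in VERCUR-WT and 3982, 3608 and 4258 in VERCUR-CD mice. Every pair of groups overlapped for both genes. The mice of low Pvalb (VEH-CD 2, VERCUR-WT 1 and VERCUR-CD 2) were also the lowest of their groups for both peptides.

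Vip, the peptide of interneurons that mainly inhibit other interneurons, had normalized counts of 2154, 2369 and 1865 in VEH-WT mice and of 1742, 1995 and 2148 in VEH-CD mice. With treatment it had 2357, 2247 and 1882 in VERCUR-WT and 1875, 1911 and 2174 in VERCUR-CD mice. Normalized counts of Cck were 19209, 18545 and 17543 in VEH-WT, 18019, 17946 and 19649 in VEH-CD, 19137, 21792 and 17724 in VERCUR-WT and 18417, 17489.5 and 19150.3 in VERCUR-CD mice. The groups overlapped for Vip and for Cck alike.

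Reln had 2200.2, 2223 and 2466 normalized counts in VEH-WT mice and 1955, 1831 and 1745 in VEH-CD mice. It had 2519.9, 2047 and 2379 in VERCUR-WT mice and 1978, 2238 and 2038 in VERCUR-CD mice. As for Lhx6, each VEH-CD mouse was below every mouse of the other 3 groups, a split whose share over all genes was not counted.

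**Figure D1:**
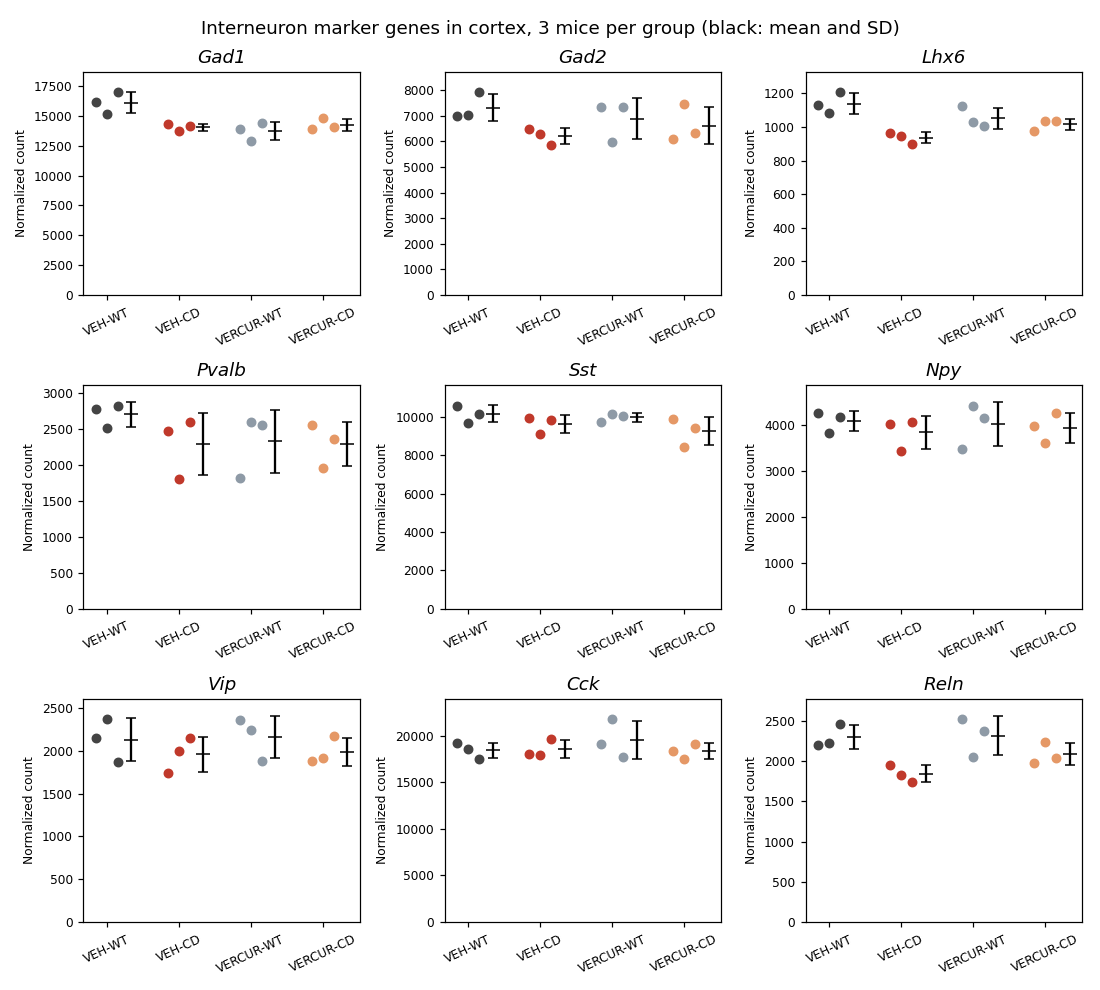
Normalized counts (y axis, from 0) of the 9 marker genes in each mouse, with the 4 groups on the x axis; coloured points are mice and black bars the group mean and SD (n = 3). The VEH-CD points of Lhx6 and Reln lie below those of all other groups, the VEH-WT points of Gad1 above, and Pvalb has 1 low mouse in each group other than VEH-WT.

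The first comparison asked what the deletion changed in untreated mice. In VEH-CD against VEH-WT mice, 8 of the 9 markers were lower, with a median log2 fold change of -0.20 against -0.003 over all genes, where 50.7% of genes were lower. The markers come from the same mice and some vary together, so their signs are not independent observations, here and in the comparisons below. None of the 9 was called changed by limma, which required a Benjamini-Hochberg adjusted p under 0.05 over 17111 genes and a fold change of more than 25% up or down; 0.257% of all genes were called. At an unadjusted p under 0.05, 4 of the 9 were lower and 0 higher, against 6.73% of all genes lower. The VEH-CD mice lay below every VEH-WT mouse in the same 4 genes, Lhx6, Reln, Gad1 and Gad2, where 11.4% of all genes did.

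Lhx6 had a log2 fold change of -0.28 (SE 0.07, limma, Benjamini-Hochberg adjusted p = 0.157), or 0.823 of the VEH-WT level with a 95% interval of 0.741 to 0.914. Reln differed by -0.32 on the log2 scale (SE 0.09, limma, adjusted p = 0.187), a fold of 0.803 (95% interval 0.706 to 0.913). The difference of Gad1 was -0.20 (SE 0.06, limma, adjusted p = 0.221), a fold of 0.873 (0.799 to 0.953). That of Gad2 was -0.24 (SE 0.10, limma, adjusted p = 0.356), a fold of 0.849 (0.735 to 0.98). These 4 differences exceeded the spread between mice in single tests and did not pass the correction over all genes. Their folds were also smaller than the call required.

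The subclass markers differed less or were too variable to tell. Pvalb had a log2 fold change of -0.26 (SE 0.16, limma, adjusted p = 0.554), the size of that of Gad2 but with an interval from 0.66 to 1.06 of the VEH-WT level. Single mice moved these values. Without VEH-CD mouse 2 the log2 fold change was -0.09 for Pvalb, -0.04 for Sst (from -0.08) and -0.01 for Npy (from -0.09). That of Vip, -0.12 with all mice, was -0.21 without VEH-WT mouse 3, -0.18 without VEH-CD mouse 3, -0.04 without VEH-WT mouse 2 and -0.03 without VEH-CD mouse 1. Npy was also at -0.06 without VEH-WT mouse 1, and Sst at -0.05. Sst stood at a fold of 0.948 (95% interval 0.86 to 1.04), Npy at 0.939 (0.81 to 1.09) and Vip at 0.922 (0.779 to 1.09). For Cck the fold was 1.01 (0.899 to 1.12).

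In bulk cortex, fewer interneurons and less of each transcript per cell cannot be told apart. Without the 4 mice of high striatal signal, the log2 fold changes were -0.26 for Lhx6, -0.31 for Reln, -0.17 for Gad1 and -0.21 for Gad2, with limma adjusted p-values of 0.839, 0.835, 0.896 and 0.973 and with 3 of the 4 at an unadjusted p under 0.05, Gad2 being the exception. Markers of other cells moved with the comparison as follows. The 8 striatal markers had a median log2 fold change of 0.002 and the 8 pyramidal markers of -0.007, with 4 of each list lower. The 6 oligodendrocyte markers were all lower, with a median of -0.22 and 0 of them at an unadjusted p under 0.05, and their summed level was 0.731 to 0.925 of the VEH-WT mean in VEH-CD and 0.784 to 1.241 in VEH-WT mice. The 8 immediate early genes, which neurons switch on within minutes of firing, were all lower, with a median log2 fold change of -1.36 and 7 of them at an unadjusted p under 0.05. Their summed level was 0.746 to 1.27 of the VEH-WT mean in VEH-WT mice and 0.21 to 0.501 in VEH-CD mice, without overlap. The part of these lists in the differences of the interneuron markers was not tested.

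**Figure D2:**
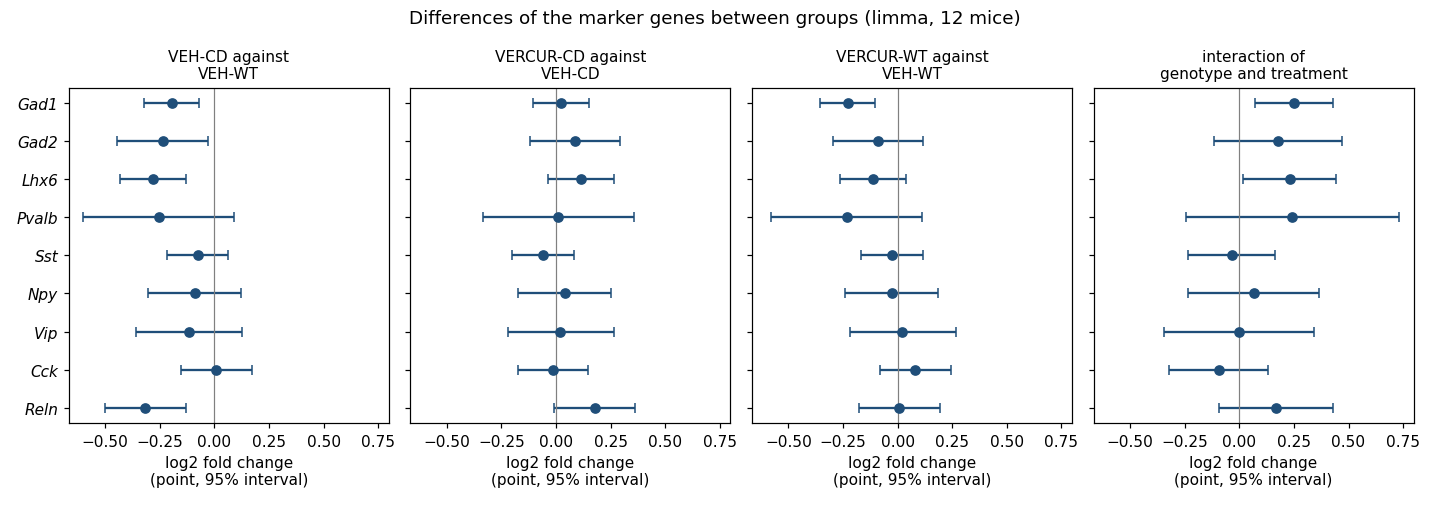
Log2 fold change (x axis; point and 95% interval from limma over 12 mice) of each marker gene (y axis) in 3 comparisons of groups and in the interaction of genotype and treatment. In VEH-CD against VEH-WT the intervals of Gad1, Gad2, Lhx6 and Reln lie below 0, and in VERCUR-CD against VEH-CD every interval includes 0.

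Genes from lists for GABA synthesis and transport, transcription factors, interneuron subclasses and receptors were read next to the members, which are among them. Whether the listed genes are used only by interneurons was not tested, so the counts below cannot be credited to interneurons alone. Penk, in the list of the caudal eminence, and Tac1, in the Pvalb list, varied widely between mice. They stood at 3014 ± 1687 and 277 ± 113 normalized counts per kilobase (SD over all mice). None of the listed genes was called. Of 8 genes of GABA synthesis and transport, 7 were lower in VEH-CD than in VEH-WT mice and 3 of them had an unadjusted p under 0.05, with a median log2 fold change of -0.17. Of 14 transcription factors of GABAergic neurons, 13 were lower and 5 had such a p (median -0.23). Lhx6 had the smallest p of these, and Dlx6 was the only one that was higher, by 0.14 on the log2 scale (SE 0.24, limma adjusted p = 0.838).

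Of 10 genes listed for Pvalb cells, 9 were lower and 4 had an unadjusted p under 0.05, with a median log2 fold change of -0.24. The smallest p belonged to Pthlh, the gene of parathyroid hormone-like peptide, at -0.66 (SE 0.19, limma, adjusted p = 0.214), and the gene with the smallest p in the other direction was Ntng1 at 0.04 (adjusted p = 0.91). Of 10 genes listed for Sst cells, 7 were lower but 0 had an unadjusted p under 0.05 (median -0.08). Elfn1, which shapes synapses onto Sst cells, was at -0.19 (limma adjusted p = 0.455) and Calb1, the gene of calbindin, at 0.08 (adjusted p = 0.739).

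Of 14 genes listed for cells from the caudal eminence, 11 were lower and 3 had an unadjusted p under 0.05 (median -0.13). Reln had the smallest p among them, and Cnr1, the cannabinoid receptor of Cck basket cells, stood at 0.02 (limma adjusted p = 0.959). The receptors for these peptides and for reelin, listed with the reelin adaptor gene Dab1, went both ways. Of the 14 genes measured, Dab1 included, 8 were lower, 2 with an unadjusted p under 0.05, and 1 was higher with such a p. Sstr2, a somatostatin receptor, was at -0.40 (SE 0.12, limma, adjusted p = 0.222) and Npy1r, a receptor of neuropeptide Y, at 0.27 (SE 0.10, limma, adjusted p = 0.313). Whether the lists differed from each other was not tested.

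**Figure D3:**
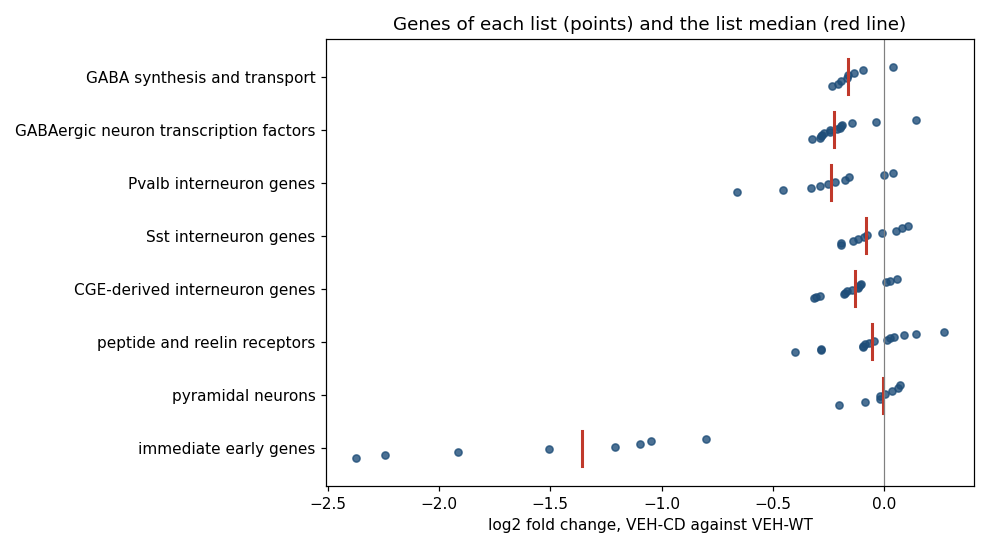
Log2 fold changes of single genes (blue points) in VEH-CD against VEH-WT mice on the x axis, for 8 lists of genes on the y axis, with each list's median as a red line. The medians of the GABA, transcription factor and Pvalb lists lie between -0.17 and -0.24, that of the pyramidal list at -0.007 and that of the immediate early genes at -1.36.

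The treatment of CD mice was examined next. In VERCUR-CD against VEH-CD mice none of the 9 members was called by limma with Benjamini-Hochberg adjustment, as was 0% of all genes, and none had an unadjusted p under 0.05. Reln was higher in each VERCUR-CD mouse than in any VEH-CD mouse, with a log2 fold change of 0.18 (SE 0.09, limma, adjusted p = 0.867) and a fold of 1.13 (95% interval 0.994 to 1.29). Lhx6 was the only other member without overlap, at 0.12 (SE 0.07, limma, adjusted p = 0.867) and a fold of 1.08 (0.976 to 1.2). Groups with all treated mice above were seen for 3.71% of all genes. For Gad1 the fold was 1.02 with an interval of 0.93 to 1.11.

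The summed level of the immediate early genes was 0.383 to 0.64 of the VEH-WT mean in VERCUR-CD mice, overlapping VEH-CD mice, and the median log2 fold change of the 8 striatal markers was -0.89, with 8 of 8 lower. The 8 immediate early genes were all higher, with a median of 0.66. Astrocyte markers were higher in 6 of 6, with a median of 0.18 and 1 at an unadjusted p under 0.05, and endothelial markers in 5 of 6, with a median of 0.17 and 1 at such a p. The part of these lists in the values of the markers was not tested. Without the 4 mice of high striatal signal the log2 fold changes were 0.26 for Reln (limma, adjusted p = 0.701) and 0.17 for Lhx6 (adjusted p = 0.704).

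Treated CD mice were also set against untreated wild-type mice. In VERCUR-CD against VEH-WT mice all 9 markers were lower, where 49.5% of all genes were, and the median log2 fold change was -0.14. None was called by limma with Benjamini-Hochberg adjustment, against 0.199% of all genes. At an unadjusted p under 0.05, 2 were lower, against 4.76% of all genes, namely Gad1 and Lhx6, whose groups also did not overlap, as in 7.33% of all genes. Gad1 had a log2 fold change of -0.17 (SE 0.06, limma, adjusted p = 0.44) and Lhx6 one of -0.16 (SE 0.07, limma, adjusted p = 0.544). Reln stood at -0.14 (SE 0.09, limma adjusted p = 0.686) and Gad2 at -0.15 (SE 0.10, adjusted p = 0.702). Without the 4 mice of high striatal signal Gad1 stood at -0.12 and Lhx6 at -0.09, with adjusted p-values of 0.622 and 0.747 in limma. Striatal markers were lower in 8 of 8 (median log2 fold change -0.82) and oligodendrocyte markers in 6 of 6 (median -0.30). Immediate early genes were lower in 8 of 8 (median -0.97, 4 at an unadjusted p under 0.05). Endothelial markers were higher in 6 of 6 (median 0.16, 1 at such a p) and astrocyte markers in 5 of 6 (median 0.12). Microglia markers were higher in 5 of 6 (median 0.18), with 3 at such a p. The part of all these lists in the values of the interneuron markers was not tested. This comparison shares its VEH-WT mice with the first and its VERCUR-CD mice with the second.

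In wild-type mice Gad1 had the smallest p of the members with treatment, which did not pass the correction. VERCUR-WT against VEH-WT mice gave a log2 fold change of -0.23 for Gad1 (SE 0.06, limma, Benjamini-Hochberg adjusted p = 0.867), a fold of 0.853 (95% interval 0.781 to 0.931), with no overlap of the groups. It was the only member at an unadjusted p under 0.05, where 3.25% of all genes were lower with such a p, and the only one without overlap, where 5.25% of all genes lay below. None of the 9 members and 0% of all genes were called. Reln had a fold of 1.01 (0.885 to 1.14) and Lhx6 of 0.924 (0.832 to 1.03) in the same comparison. Striatal markers were lower in 8 of 8, with a median log2 fold change of -0.64, and oligodendrocyte markers in 6 of 6, with a median of -0.51. Immediate early genes were lower in 8 of 8, with a median of -0.91 and 3 at an unadjusted p under 0.05, and their summed level was 0.37 to 0.706 of the VEH-WT mean against 0.746 to 1.271 in VEH-WT mice, without overlap. The part of these lists in the difference of Gad1 was not tested. Without the 4 mice of high striatal signal the log2 fold change of Gad1 was again -0.23 (limma, adjusted p = 0.689), but in the mice that remain the summed striatal level was 0.402 and 0.415 in VERCUR-WT against 0.739 and 0.761 in VEH-WT mice.

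Between treated groups the mice overlapped for every marker. In VERCUR-CD against VERCUR-WT mice none was called by limma with Benjamini-Hochberg adjustment, against 0.146% of all genes, and none had an unadjusted p under 0.05. Of the 9, 8 were lower, where 48.4% of all genes were. Pvalb (-0.01), Npy (-0.02), Lhx6 (-0.05) and Gad2 (-0.06) differed by little, and Cck (-0.09), Sst (-0.11) and Vip (-0.12) by more. Reln was at -0.15 (SE 0.09, limma adjusted p = 1) and Gad1 was the only positive one at 0.06 (SE 0.06, adjusted p = 1). Oligodendrocyte markers were higher in 6 of 6 in the same comparison (median 0.25), and their part was not tested.

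Over both treatments, with 6 CD and 6 WT mice, all 9 markers were lower in CD mice, where 50.9% of all genes were lower, and the median log2 fold change was -0.12. None was called by limma with Benjamini-Hochberg adjustment, against 0.321% of all genes. At an unadjusted p under 0.05, 3 were lower, against 4.86% of all genes. These were Reln at -0.23 (SE 0.06, limma adjusted p = 0.202), Lhx6 at -0.17 (SE 0.05, adjusted p = 0.269) and Gad2 at -0.15 (SE 0.07, adjusted p = 0.517). Gad1, at -0.20 between the untreated and 0.06 between the treated groups, stood at -0.07 (SE 0.04, limma adjusted p = 0.638). The 6 CD and 6 WT mice overlapped for every member. Immediate early genes were lower in 8 of 8 in the same comparison (median -0.72), and their part was not tested.

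Over both genotypes, VERCUR against VEH mice differed by an unadjusted p under 0.05 in 1 member, Gad1, at -0.10 (SE 0.04, limma, adjusted p = 1), where 1.51% of all genes were lower with such a p. None of the 9 members and 0% of all genes were called. Reln was at 0.09 (SE 0.06, limma adjusted p = 1). Striatal markers were lower in 8 of 8 (median log2 fold change -0.76, 1 at an unadjusted p under 0.05). Immediate early genes were lower in 8 of 8 (median -0.15) and oligodendrocyte markers in 6 of 6 (median -0.30). Astrocyte, microglia and endothelial markers were higher in 6 of 6 of each list (medians 0.11, 0.10 and 0.10), each with 1 at such a p. The part of all these lists in the value of Gad1 was not tested.

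Whether the treatment acted differently in the genotypes was tested as an interaction. None of the 9 members and 0% of all genes passed an adjusted p under 0.05 in limma. Gad1 had an interaction of 0.25 (SE 0.08, limma, adjusted p = 0.816) and Lhx6 one of 0.23 (SE 0.10, limma, adjusted p = 0.816), which made 2 members that were higher at an unadjusted p under 0.05, against 3.72% of all genes. For Gad1 the positive value arose from a lower level in treated wild-type mice together with little change in treated CD mice, and for Lhx6 from opposite signs in the genotypes. Gad2 stood at 0.18 (SE 0.14) and Reln at 0.17 (SE 0.12), both with a limma adjusted p of 0.819. Immediate early genes had a positive interaction in 8 of 8 (median 1.504, 5 at an unadjusted p under 0.05) and oligodendrocyte markers in 6 of 6 (median 0.41), and their part was not tested. The difference of the effects was thus not shown for any member after correction.

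The markers were last compared with each other between mice of the same group, by removing the group means. Of the 36 pairs, 1 passed an adjusted p under 0.05. Gad2 and Reln varied together with Pearson r = 0.956 over 12 mice (two-sided exact permutation within groups, p = 0.000772, which is the smallest that the arrangements allow, adjusted p = 0.0278). Spearman's rho was 0.951 (exact permutation p = 0.000772), and without the 2 mice farthest from the median of Gad2 r was 0.942. The 2 transcripts thus ranked the mice almost alike within their groups.

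At an unadjusted p under 0.05, 8 pairs were found. The positive ones fell into 2 blocks. In the first, Gad1, Gad2 and Reln varied together, with r = 0.799 for Gad1 and Gad2 (exact permutation p = 0.0154, adjusted p = 0.0926, rho = 0.79 with p = 0.0216, r = 0.752 without 2 mice) and r = 0.753 for Gad1 and Reln (exact permutation p = 0.0332, adjusted p = 0.149, rho = 0.741 with p = 0.0355, r = 0.656 without 2 mice). In the second, Pvalb, Sst and Npy varied together. For Pvalb and Npy r was 0.931 (exact permutation p = 0.00772, adjusted p = 0.0694, rho = 0.755 with p = 0.0509, r = 0.847 without 2 mice). For Pvalb and Sst r was 0.801 (exact permutation p = 0.0054, adjusted p = 0.0694, rho = 0.65 with p = 0.0154, r = 0.85 without 2 mice). For Sst and Npy r was 0.759 (exact permutation p = 0.00772, adjusted p = 0.0694, rho = 0.615 with p = 0.0401, r = 0.632 without 2 mice). For Pvalb 4 of the 12 mice lay below their group mean and the other 8 above it.

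Cck went the other way from the first block. Its r was -0.864 with Gad2 (exact permutation p = 0.01, adjusted p = 0.0722, rho = -0.832 with p = 0.0116, r = -0.807 without 2 mice) and -0.809 with Reln (exact permutation p = 0.0278, adjusted p = 0.143, rho = -0.776 with p = 0.0239, r = -0.793 without 2 mice). Vip had no such pair, and its highest r was 0.649 with Cck (exact permutation p = 0.0671, adjusted p = 0.227). In all, 14 of the 36 pairs had a positive r and 22 a negative one, so the 9 markers did not move as a single quantity from mouse to mouse. All values of a mouse come from 1 dissection and 1 library. The genes of the first block have 5876 (Gad2), 7639 (Gad1) and 23738 (Reln) exonic bases. Those of the second have 566 (Npy), 721 (Sst) and 1041 (Pvalb), and Cck has 1305. Vip and Lhx6 lie between, at 3402 and 4805. The part of transcript length or of RNA quality in the blocks was not tested.

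**Figure D4:**
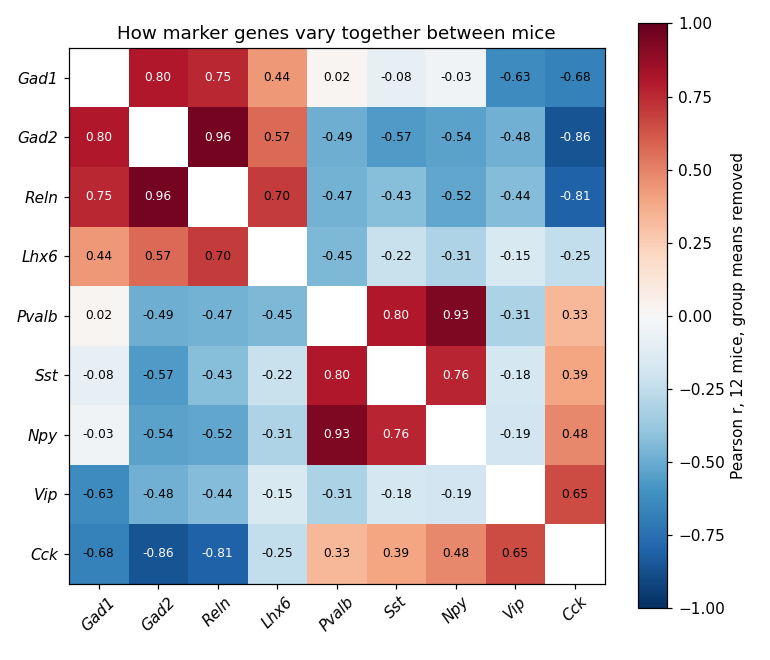
Pearson r of each pair of marker genes over 12 mice after the group means were removed, in red where positive and in blue where negative, with the value in each cell. Gad1, Gad2 and Reln form a positive block and Pvalb, Sst and Npy another, and Cck is negative with Gad1, Gad2 and Reln.

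**Figure D5:**
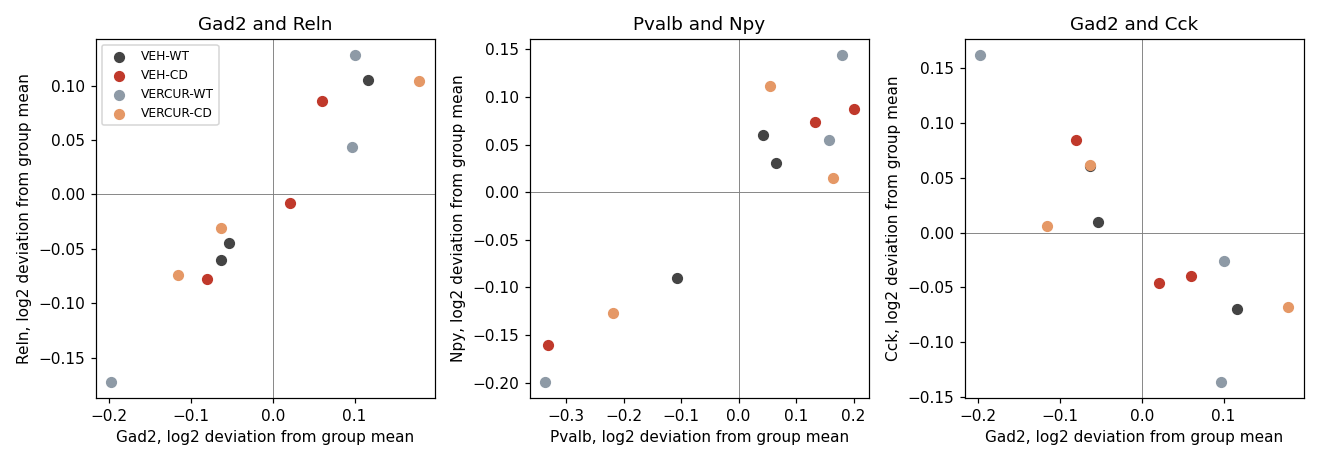
Deviation of each mouse from its group mean on the log2 scale for 3 pairs of marker genes, with the 4 groups in colour. Gad2 and Reln lie along a line (r = 0.956), Pvalb and Npy have 4 mice at the low end (r = 0.931), and Gad2 and Cck run in opposite directions (r = -0.864).

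Ratios between markers within a mouse were also taken. Reln per Gad1 was 0.136, 0.146 and 0.145 in VEH-WT mice, 0.137, 0.134 and 0.123 in VEH-CD mice, 0.182, 0.158 and 0.165 in VERCUR-WT mice and 0.142, 0.151 and 0.144 in VERCUR-CD mice. VERCUR-WT mice had the highest ratio, above every mouse of the other groups. Against VEH-WT mice, the fold of Gad1, the denominator, was 0.853 in VERCUR-WT mice and that of Reln 1.01. Lhx6 per Gad1 averaged 0.0707 ± 0.000764 (SD, n = 3) in VEH-WT, 0.0667 ± 0.00278 in VEH-CD, 0.0767 ± 0.00626 in VERCUR-WT and 0.0712 ± 0.00189 in VERCUR-CD mice. Gad2, Pvalb, Sst and Vip per Gad1, Sst per Pvalb and Sst per Vip were also taken. In each of these, and in Lhx6 per Gad1, VERCUR-WT mice overlapped at least 1 other group. For Lhx6 per Gad1 it was the VEH-CD mice, at 0.0677, 0.0689 and 0.0636, that lay below every mouse of the other groups. The share of other gene ratios with such splits was not counted. All the ratios are given as a description, without a test.

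Among 14267 genes with a mean of at least 50 normalized counts, those whose log2 levels followed a marker most closely over the 12 mice were named for 4 markers. For Pvalb they included Phospho1 (Pearson r = 0.951, Spearman rho = 0.825) and Lynx1 (r = 0.941, rho = 0.888). For Sst they were Jund (r = 0.959), Pgs1 (r = 0.951) and Itm2c (r = 0.914). The highest for Gad1 were Cln8 (r = 0.912), Ank1 (r = 0.911) and Dusp3 (r = 0.892), and for Vip Dpp6 (r = 0.862), Brd3 (r = 0.85) and Oxtr (r = 0.846). Each is the highest of many, over mice that share libraries and groups, and none of the other 8 markers was among the 3 closest genes of these 4.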

How the data were processed

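Cortical RNA of 12 mice was sequenced, with groups taken from the sample labels. According to the submitters' processing notes the authors used FastQC and aligned reads with STAR 2.5.3a to GRCm38. The authors deposited a table of normalized counts per gene and mouse, that is, read counts divided by 1 factor per library. The counting program and annotation release are not given in the sources used here. Low values were whole multiples of 1 step in each library (100% of them, within 0.1 of a step), and depth was read from that step. Further deposited files give selected genes as a ratio to the VEH-WT mean and were not used.

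A linear model was fitted with limma 3.58.1 (R 4.3.3) to log2(normalized count + 1) over the 17111 genes with a mean of at least 10, with 4 group means and an intensity trend. Tests were two-sided, with Benjamini-Hochberg adjustment over all genes tested. Fold changes are on the log2(value + 1) scale. A gene was called when its adjusted p was under 0.05 and its level differed by more than 25% up or down, and in the interaction by the adjusted p alone. Pairs of members were tested by exact permutation within groups in Python 3.11.15. An exact test of a single gene between groups of 3 mice has p = 0.1 as its minimum and was not run. The scripts were tested on simulated data. The labels give no batch. Members, gene lists and tests were chosen with earlier results of these data known. The genes named are the members, the gene of smallest p in each direction of the transcription factor, subclass and receptor lists, and the 3 genes most like Gad1, Pvalb, Sst and Vip, of which 1 is not reported here. Gene positions are from GENCODE M21, in which 17193 identifiers were found, and 19 symbols belong to more than 1 gene, none of them a member. Genes that overlap Gad1, Gad2, Reln or Lhx6 in the annotation were not used here, and whether counting used the strand is not given in the sources used here.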

Additional observations from a re-analysis of the deposited data

How the results depend on the processing

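The count of called markers was 0 in each of the 8 comparisons under all 204 combinations of comparison and alternative: pseudocounts of 0.1 and 5, no filter or a mean of at least 50, quantile normalization, centring each library on its median log2 ratio, restriction to genes whose CV was under 20%, removal of the farthest value where the CV was 20% or more, fewer groups in the fit, no trend, sample weights, adjusted p alone, the replicate block, each mouse left out (range 0 to 0), and, added after seeing the data, the 4 mice of highest striatal level left out. In VEH-CD against VEH-WT mice 3 or 4 of the 9 had an unadjusted p under 0.05 under every alternative, and the lowest adjusted p ranged from 0.0189 with sample weights, where 349 genes were called, to 0.835 without the 4 mice of highest striatal level. It was 0.0331 with the farthest values removed, where 972 genes were called, against 44 genes in the values reported. In both of these the adjusted p was under 0.05 for Lhx6 (0.0189 and 0.0337) and Reln (0.0277 and 0.0331), and with weights for Gad1 (0.0316), but their folds stayed inside the bounds of a call. In other comparisons it was under 0.05 for Reln over both treatments (0.0271 with weights, 0.0283 with values removed), for Gad1 in VERCUR-CD against VEH-WT mice (0.0468 with weights) and for Gad1 in VERCUR-WT against VEH-WT mice (0.0449 with values removed), again without a call. The log2 fold changes of Lhx6 (-0.32 to -0.24), Reln (-0.36 to -0.26), Gad1 (-0.24 to -0.16) and Gad2 (-0.27 to -0.18) kept their sign under all 25 alternatives. That of Cck, near 0, reversed to -0.027 without VEH-WT replicate 3, to -0.035 without VEH-CD replicate 3, its range with single mice left out being -0.035 to 0.038, and to -0.007 without the 4 mice of highest striatal level. Over all comparisons, 29 of the 72 fold changes of members reversed under at least 1 alternative, none of them larger than 0.10 in size.

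The count of pairs of members that varied together was 1. It was 5 when the 12 mice were pooled without removing group means and 4 under the replicate block. With single mice left out it ranged from 0 to 0, where 11 mice allow no p below 0.00231 and a lone pair at that p has an adjusted p of 0.0833, so this says nothing about its stability. Replicate numbers did not pair the mice, since same-numbered mice of different groups had correlations of their deviations from -0.347 to 0.267 (median 0.021, 18 pairs) against -0.235 to 0.325 for other numbers (median -0.014), and 1 of 12 mice correlated best with its own number. Under the replicate block 40 genes were called in VEH-CD against VEH-WT mice, and 0 of the members. The count tests planned on whole reads were not run. With 3 mice a group, differences of the size seen for Sst, Npy and Vip were not detectable, and levels of a transcript cannot be told apart from numbers of cells.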
